A study of Mus musculus with 4 samples.

Results

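Butyrate and lactate cross epithelial membranes through a small set of carriers. The transcripts described here are those of monocarboxylate transporters, of the glycoproteins that escort them and of an efflux pump. They are *Slc16a1*, *Slc16a3*, *Slc16a4*, *Slc16a7*, *Slc5a8*, *Slc5a12*, *Bsg*, *Emb* and *Abcg2*. They were taken by gene symbol, and all 9 had a row among the 36144 rows of the gene table. The libraries were bulk poly-A RNA-seq of mouse colonic organoids (colonoids), which are cultures of epithelial crypt cells grown in Matrigel. There were 4 libraries: untreated and butyrate-treated (2 mM sodium butyrate) colonoids, each at 48 h and 72 h. For the untreated libraries the labels name the culture day in place of hours, day 2 and day 3.

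Every group shared the donor and the medium. The labels give wild-type (WT) male mouse colon at an age of 24 weeks, whereas the study's methods describe colonoids from the proximal colon of Hes1-GFP reporter mice. The cultures came from 1 mouse at passage 3. The medium of treated and untreated colonoids alike held EGF, Noggin, R-spondin, the GSK3 inhibitor CHIR99021 and the ROCK inhibitor Y-27632. Each condition had 1 library, so no difference below could be set against a replicate error and no test between conditions was made. The 95% intervals of fold changes and ratios are exact Clopper-Pearson intervals on each pair of counts. Those of a difference between the 72 h and 48 h changes are normal approximations from the counts of all 4 libraries. Both kinds cover counting error only.

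Butyrate, a short-chain fatty acid made by bacterial fermentation of fibre, is the main fuel of colonocytes. The monocarboxylate transporters of the SLC16 family carry lactate, pyruvate, ketone bodies and butyrate together with a proton, in the direction set by the gradients, and the SLC5 members *Slc5a8* and *Slc5a12* carry such anions together with sodium. The SLC16 carriers MCT1 and MCT4 need the glycoprotein basigin to reach the plasma membrane, MCT2 pairs with embigin, and the ATP-driven pump encoded by *Abcg2* exports drugs and other organic anions from the apical side.

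The promoters of the 2 most abundant carriers are shown with that of the sodium-coupled carrier, because the first 2 had higher counts with butyrate and the last had lower counts. Sequences are the 250 bases before the RefSeq transcript start (GRCm38.p6, plus strand, 5′ to 3′), and capitals mark the GC box GGGCGG or its reverse complement CCGCCC. The windows are chr3:104638414-104638663 for *Slc16a1*, chr11:120948817-120949066 for *Slc16a3* and chr10:88885742-88885991 for *Slc5a8*. The *Slc16a3* window lies before the RefSeq start and inside the span that GENCODE gives the gene, which has a transcript starting further upstream.
Slc16a1: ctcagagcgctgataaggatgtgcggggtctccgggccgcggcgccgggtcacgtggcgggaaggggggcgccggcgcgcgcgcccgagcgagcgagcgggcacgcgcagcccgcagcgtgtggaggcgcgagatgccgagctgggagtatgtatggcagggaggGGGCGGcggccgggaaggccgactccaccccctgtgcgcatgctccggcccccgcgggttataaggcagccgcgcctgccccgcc
Slc16a3: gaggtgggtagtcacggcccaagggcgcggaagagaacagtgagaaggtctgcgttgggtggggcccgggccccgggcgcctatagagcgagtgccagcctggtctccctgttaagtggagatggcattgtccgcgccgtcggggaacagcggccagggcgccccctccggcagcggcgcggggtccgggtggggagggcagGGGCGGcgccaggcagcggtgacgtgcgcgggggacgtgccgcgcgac
Slc5a8: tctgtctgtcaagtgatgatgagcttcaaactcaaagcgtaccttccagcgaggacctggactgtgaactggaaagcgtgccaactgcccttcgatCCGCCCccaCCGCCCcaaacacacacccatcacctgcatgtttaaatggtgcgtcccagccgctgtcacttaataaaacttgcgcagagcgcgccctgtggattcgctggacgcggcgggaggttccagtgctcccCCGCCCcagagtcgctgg
The *Slc16a1* window held 37 CpG dinucleotides, the *Slc16a3* window 29 and the *Slc5a8* window 17, against a median of 6 over all 32851 windows of this length. The GC content was 76.4% for *Slc16a1*, 73.6% for *Slc16a3* and 58.8% for *Slc5a8*. A GC box on either strand was present in all 3, with 1 match for *Slc16a1*, 1 for *Slc16a3* and 3 for *Slc5a8*, and in 32.7% of all windows. The E-box CACGTG, which reads the same on both strands, was found once in the *Slc16a1* window and in 6.02% of all windows. Promoter entries were matched for 6 of the 9 genes, which leaves *Slc16a7*, *Slc5a12* and *Bsg* named only. A match of letters is a description of the window and not a binding site, and the GC box was present both in genes with higher and in genes with lower counts.

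The deposited estimated counts summed to between 20790225 and 24207840 per library, and the mitochondrial share was 14.1% to 18.4%. Of the 9 genes, 7 had over 10 counts in at least 2 libraries and were among the 13979 genes compared. Epithelial markers were abundant in every library, with the summed normalised count of the 7 markers (*Epcam*, *Cdh1*, keratins, *Vil1* and *Cdx2*) between 141138 and 155855. The 6 fibroblast markers summed to between 22.7 and 27.2, with *Col3a1* at 0, the 4 endothelial markers to between 28.1 and 54.3, and the 4 erythroid markers to at most 3.63. The libraries are of mixed epithelial cells, so a different share of a cell type and a different amount of RNA per cell cannot be told apart.

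*Slc16a1* encodes MCT1, the proton-coupled carrier through which colonocytes take up butyrate (GRCm38, chr3:104638668-104658462, plus strand, 5 exons). Without butyrate 2973 counts were assigned to it at 48 h and 3087 at 72 h, and with butyrate 5778 and 3533. Scaled for library size, the untreated values were 3040 and 3048.1 normalised counts and the butyrate values 5242.3 and 3815.8. The 2 untreated libraries lay close together, both butyrate libraries lay above them, and the 48 h butyrate library was the highest. The log2 fold change with butyrate was 0.79 at 48 h (95% interval 0.72 to 0.85, 1.72-fold) and 0.32 at 72 h (0.25 to 0.39, 1.25-fold). Of all genes compared, 9.55% had a fold change at least as high at 48 h and 18.0% at 72 h. The 72 h change was smaller than the 48 h change by 0.46 on the log2 scale (difference -0.46, counting interval -0.56 to -0.37). Over time *Slc16a1* differed little in untreated colonoids (log2 fold change 0.00, -0.07 to 0.08), and in butyrate-treated colonoids it was lower at 72 h than at 48 h (-0.46, -0.52 to -0.40).

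*Slc16a3* encodes MCT4, a carrier best known for lactate export from glycolytic cells (chr11:120948480-120960868, plus strand). The untreated libraries held 1937 (48 h) and 1363 (72 h) of its counts, and the butyrate libraries 4344 and 2690. In normalised counts the untreated libraries stood at 1980.6 and 1345.8 and the butyrate libraries at 3941.2 and 2905.3, so that each butyrate library stood above both untreated libraries. With butyrate the log2 fold change was 0.99 at 48 h (0.92 to 1.07, 1.99-fold) and 1.11 at 72 h (1.02 to 1.21, 2.16-fold), the highest fold change of the 7 genes compared at both times. The 48 h value came just short of the 2-fold limit and its interval spanned it. Of the genes compared, 7.00% reached the 48 h fold change of *Slc16a3* and 3.87% its 72 h fold change. Unlike that of *Slc16a1*, its change was not smaller at 72 h (difference 0.12, counting interval -0.00 to 0.24). Its level was lower at 72 h than at 48 h in both arms, by log2 fold changes of -0.56 (-0.66 to -0.46) without and -0.44 (-0.51 to -0.37) with butyrate. The lowest library was thus untreated 72 h, and the lower of the butyrate libraries was 1.47 times the higher of the untreated ones.

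*Bsg* encodes basigin, the immunoglobulin-like glycoprotein that escorts MCT1 and MCT4 to the cell surface (chr10:79704491-79711969, plus strand). It was the most abundant of the 9 transcripts, at percentile 99.5 of the genes compared by mean level. Its untreated counts were 18311 (48 h) and 15282 (72 h) and its butyrate counts 35168 and 21697. The normalised counts were 18723.5 and 15089.2 without and 31907.3 and 23433.5 with butyrate, again with both butyrate libraries above both untreated ones. The log2 fold change was 0.77 at 48 h (0.74 to 0.79, 1.70-fold) and 0.64 at 72 h (0.61 to 0.67, 1.55-fold). The 72 h change of *Bsg* was smaller than its 48 h change by a difference of -0.13 (counting interval -0.17 to -0.09), whose interval lay apart from that of *Slc16a1*. The related neuroplastin gene *Nptn*, whose product can also escort monocarboxylate transporters, had log2 fold changes of 0.30 (0.22 to 0.37) at 48 h and 0.04 (-0.04 to 0.12) at 72 h. Per kilobase of exon, *Bsg* exceeded *Nptn* by 25.6-fold and 20.2-fold in untreated colonoids and by 35.5-fold and 30.6-fold in butyrate-treated colonoids at 48 h and 72 h.

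*Emb* encodes embigin, the alternative escort, and was near 0 counts (chr13:117208536-117274415, plus strand). Its counts were 7 and 4 at 48 h and 17 and 13 at 72 h, untreated before butyrate-treated. The butyrate intervals were wide, with log2 fold changes of -0.82 (-3.20 to 1.00) at 48 h and -0.24 (-1.42 to 0.87) at 72 h, so a butyrate difference was not detectable at this depth. Its exons overlap those of an antisense gene, and at so few counts the 2 sources cannot be told apart.

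**Figure D1:**
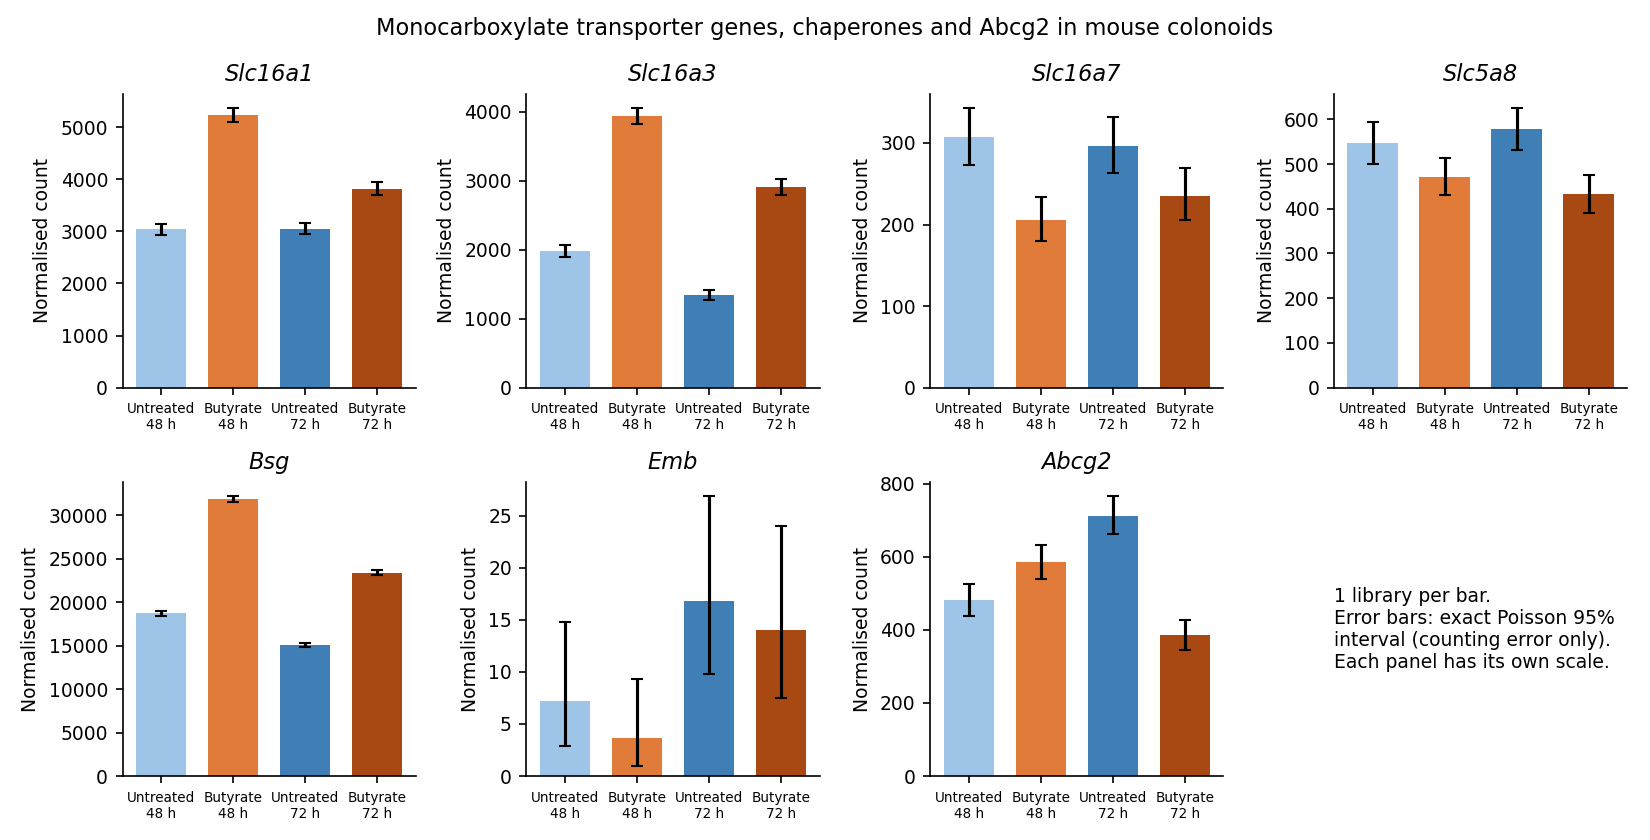
Normalised count of the 7 genes compared in each of the 4 libraries (1 bar is 1 library, blue untreated and orange with butyrate; each panel has its own scale, and error bars are exact Poisson 95% intervals for counting error only). *Slc16a1*, *Slc16a3* and *Bsg* have both butyrate libraries above both untreated libraries, *Slc16a7* and *Slc5a8* have them below, and *Abcg2* has its butyrate libraries at 584.3 (48 h) and 384.5 (72 h) on either side of untreated 48 h.

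*Slc5a8* encodes SMCT1, the sodium-coupled carrier that takes up butyrate at low concentrations from the apical side of colonocytes (chr10:88885992-88929515, plus strand). Without butyrate it had 534 counts at 48 h and 585 at 72 h, and with butyrate 519 and 400. After scaling, the untreated libraries stood at 546 and 577.6 normalised counts and the butyrate libraries at 470.9 and 432, with both butyrate libraries below both untreated libraries. The log2 fold change was -0.21 at 48 h (-0.39 to -0.04, 0.863-fold) and -0.42 at 72 h (-0.61 to -0.23, 0.748-fold). Of all genes compared, 29.3% were at least as low at 48 h and 12.9% at 72 h.

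*Slc16a7* encodes MCT2, a high-affinity pyruvate and lactate carrier (chr10:125219270-125389465, minus strand). Its untreated count was 300 at both times, and its butyrate count was 226 at 48 h and 218 at 72 h. The normalised counts were 306.8 and 296.2 without butyrate and 205 and 235.4 with it, so the groups did not overlap. The log2 fold change was -0.58 at 48 h (-0.84 to -0.33, 0.670-fold) and -0.33 at 72 h (-0.59 to -0.07, 0.796-fold). Part of its exons overlap a predicted antisense transcript, and how reads were assigned between them is not given in the sources used here.

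*Abcg2* encodes the breast cancer resistance protein (BCRP), an apical efflux pump (chr6:58584523-58695676, plus strand). The untreated libraries held 470 (48 h) and 721 (72 h) counts and the butyrate libraries 644 and 356. The normalised counts were 480.6 and 711.9 without and 584.3 and 384.5 with butyrate, so the butyrate library was the higher of the pair at 48 h and the lower at 72 h. The log2 fold change was 0.28 at 48 h (0.11 to 0.46, 1.22-fold) and -0.89 at 72 h (-1.08 to -0.70, 0.541-fold). It was the only one of the 7 genes compared whose change differed in sign between the times with both counting intervals clear of 0, and the difference was -1.17 (counting interval -1.42 to -0.92). Such a change of sign was found in 9.86% of all genes compared. Over time *Abcg2* was higher at 72 h without butyrate (0.57, 0.40 to 0.74) and lower at 72 h with it (-0.60, -0.79 to -0.41).

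The last of the carriers were at or near 0. *Slc16a4*, which encodes MCT5, a carrier with no settled substrate (chr3:107291230-107312115), had 0 counts in untreated 48 h, 3 in butyrate 48 h, 3 in untreated 72 h and 0 in butyrate 72 h. *Slc5a12*, which encodes the low-affinity sodium-coupled carrier SMCT2 known from kidney and small intestine (chr2:110597298-110647779), had 0 counts in every library. A count of 0 allows a level of up to 3 counts, or 0.124 to 0.144 CPM (counts scaled to the library total) in these libraries. No fold change is given for either gene.

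**Figure D2:**
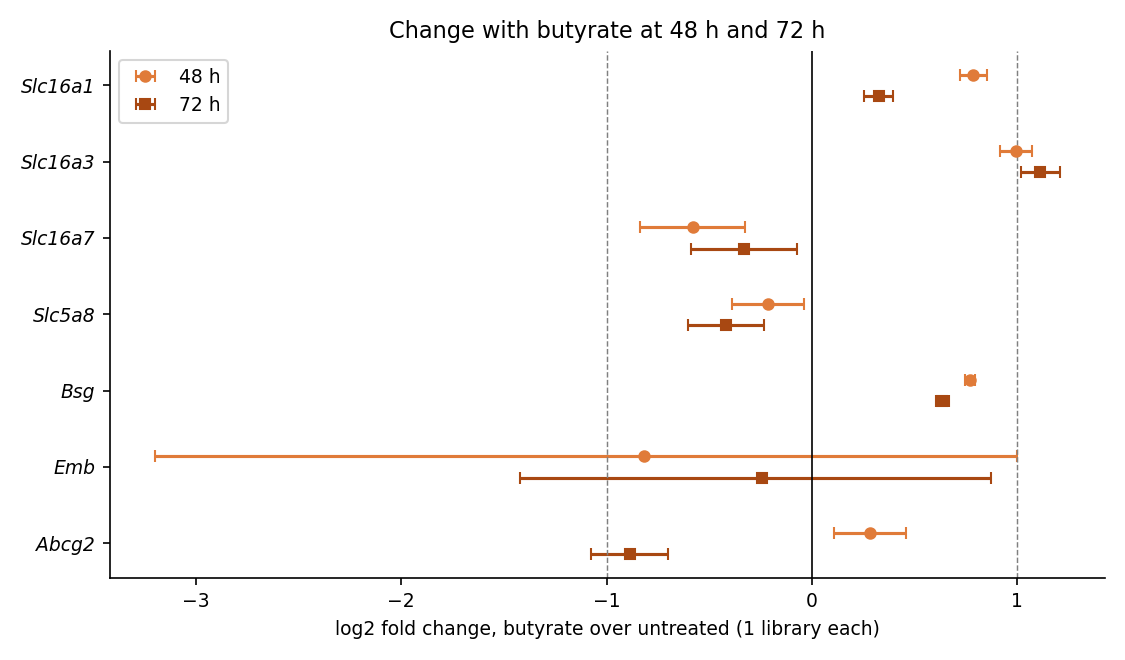
log2 fold change of butyrate-treated over untreated colonoids at 48 h (circles) and 72 h (squares) for the 7 genes compared; bars are 95% counting intervals and dashed lines mark 2-fold. *Slc16a3* lies at the 2-fold line at 48 h (0.99) and beyond it at 72 h (1.11), *Bsg* at 0.77 and 0.64, and *Abcg2* on opposite sides of 0.

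At 48 h none of the 7 genes was at least 2-fold higher (6.94% of all genes compared were) and none at least 2-fold lower (3.08%). At the wider limit of 1.5-fold, 3 were higher at 48 h, namely *Slc16a1*, *Slc16a3* and *Bsg* (13.1% of all genes), and 1 was lower, *Emb* on 7 and 4 counts (8.9%). *Slc16a7* came just short of that limit at 0.670-fold. At 72 h *Slc16a3* alone was at least 2-fold higher (4.53% of all genes) and none was 2-fold lower (3.78%). With the 1.5-fold limit, 2 were higher at 72 h, *Slc16a3* and *Bsg* (9.5%), and 1 was lower, *Abcg2* (8.53%). The pair *Slc16a3* and *Bsg* passed 1.5-fold at both times, as did 5.51% of all genes. Both butyrate libraries lay above both untreated libraries for 3 of the 7 genes, against 21.8% of all genes compared, and below them for 2 of the 7, *Slc16a7* and *Slc5a8*, against 21.7%. The median log2 fold change of the 7 genes was 0.28 at 48 h and -0.24 at 72 h, and that of all genes compared was -0.01 and 0.00. With time, 1 of the 7, *Emb*, passed 2-fold in untreated colonoids (4.49% of all genes in either direction) and the same gene in butyrate-treated colonoids (8.62%), in each case from fewer than 20 counts.

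**Figure D3:**
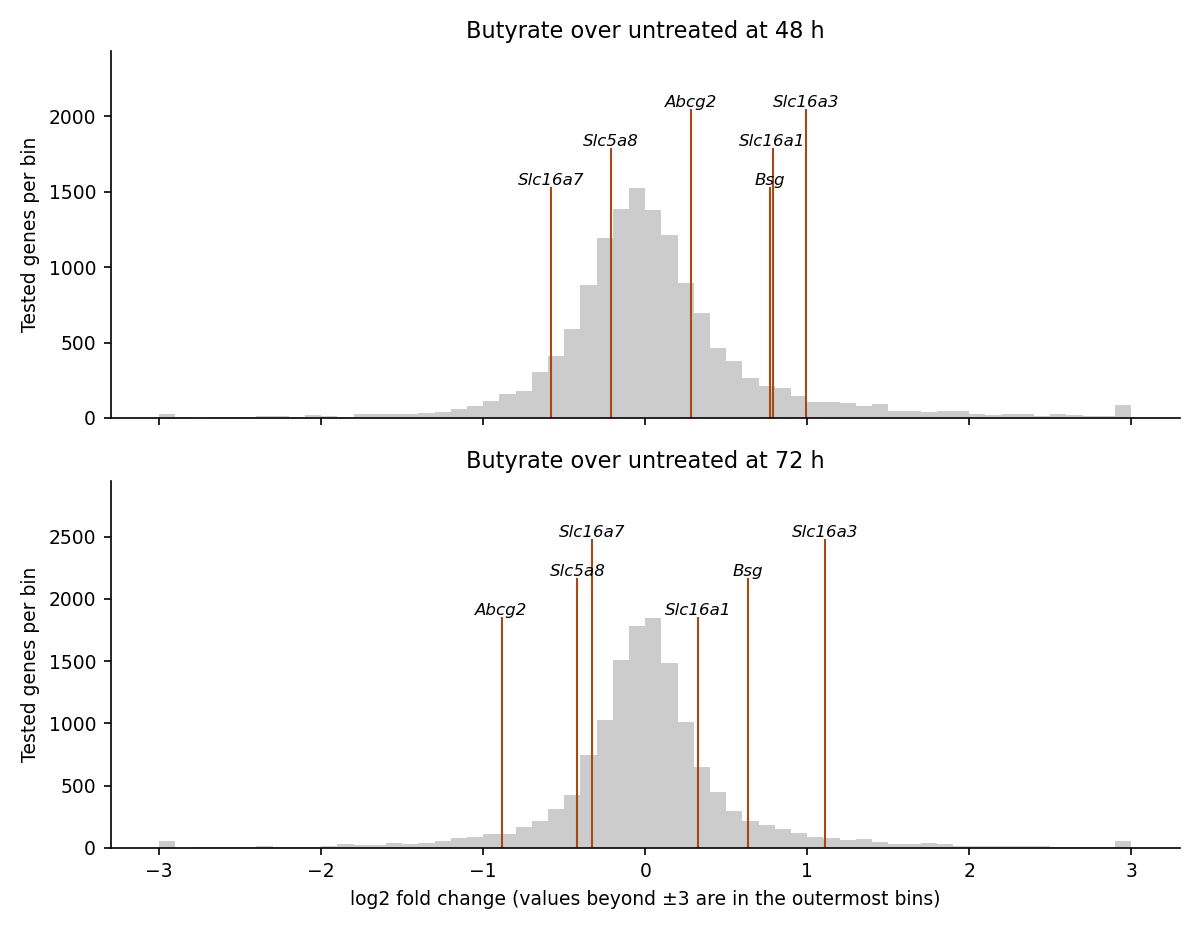
Distribution of the log2 fold change with butyrate over the 13979 genes compared, at 48 h and 72 h, as genes per bin, with lines at 6 of the 7 transporter and escort genes (*Emb* is left out) and values beyond ±3 placed in the outermost bins. *Slc16a3* and *Bsg* sit in the upper flank at both times (7.00% and 9.84% of genes at or above them at 48 h, 3.87% and 8.73% at 72 h).

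Per kilobase of exon, the order of the levels was the same in every library: *Bsg*, *Slc16a1*, *Slc16a3*, *Slc5a8*, *Abcg2* and *Slc16a7*. In untreated colonoids at 48 h these were 10322, 687, 372, 102, 58.9 and 25.9 normalised counts per kilobase. *Abcg2* and *Slc5a8* were neighbours whose order depended on the length used, since they swapped places in butyrate 48 h and untreated 72 h when the longest transcript replaced the union of exons.

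Ratios between carriers differed between untreated and butyrate-treated colonoids. The ratio of *Slc16a3* to *Slc16a1* per kilobase was 0.542 (0.512 to 0.574) and 0.367 (0.345 to 0.392) in untreated colonoids at 48 h and 72 h. It was 0.626 (0.601 to 0.651) and 0.634 (0.602 to 0.666) with butyrate, so the butyrate values nearly coincided and both exceeded the untreated ones. *Slc16a1* exceeded *Slc5a8* by 6.71-fold and 6.36-fold in untreated colonoids and by 13.4-fold and 10.6-fold in butyrate-treated colonoids, the proton-coupled carrier being the more abundant throughout. *Slc16a1* exceeded *Abcg2* by 11.7-fold and 7.89-fold without butyrate and by 16.5-fold and 18.3-fold with it. *Slc16a1* exceeded *Slc16a7* by 26.5-fold and 27.5-fold without butyrate and by 68.4-fold and 43.4-fold with it.

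Carrier and escort kept a narrower ratio. *Bsg* exceeded *Slc16a1* by 15.0-fold at 48 h without butyrate, 14.9-fold at 48 h with it and 15.0-fold at 72 h with it. The untreated 72 h library stood apart at 12.1-fold (11.6 to 12.6). *Bsg* exceeded *Slc16a3* by 27.7-fold and 32.9-fold in untreated and by 23.7-fold and 23.6-fold in butyrate-treated colonoids.

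**Figure D4:**
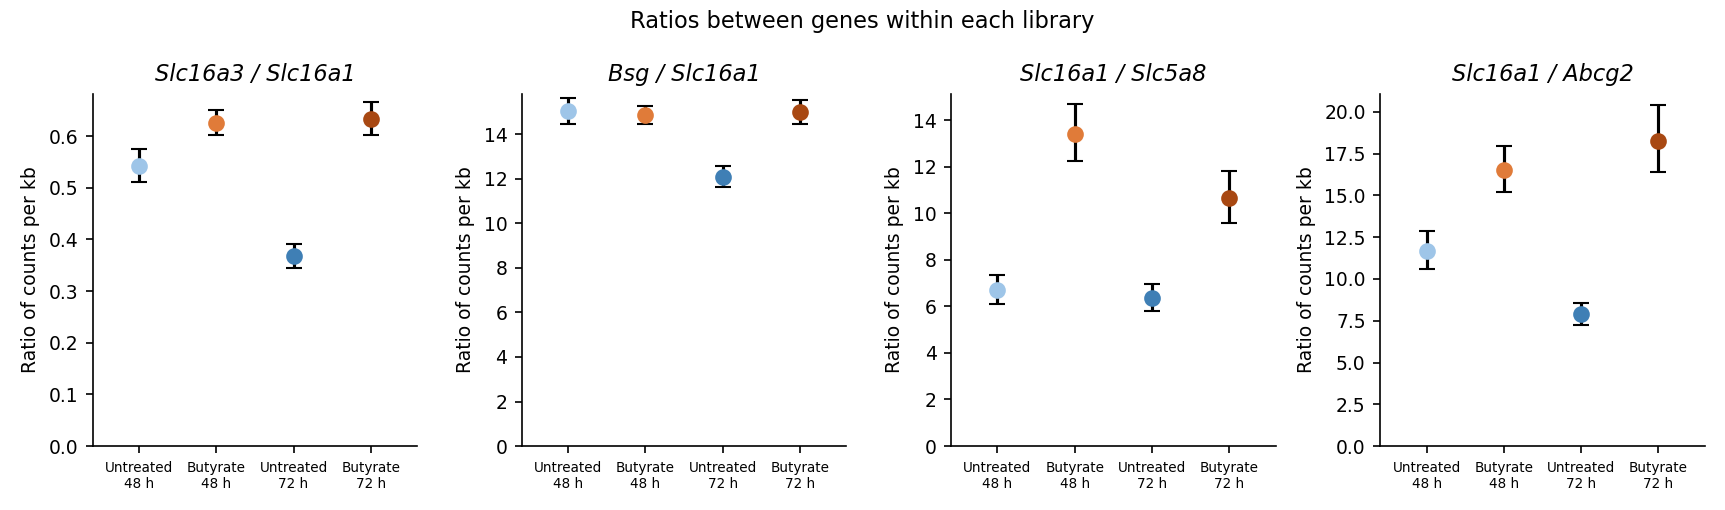
Ratios between transcripts per kilobase of exon in each of the 4 libraries (linear axes from 0, own scale per panel; bars are 95% counting intervals). *Slc16a1* over *Slc5a8* is 13.4 and 10.6 with butyrate against 6.71 and 6.36 without, while *Bsg* over *Slc16a1* stays between 12.1 and 15.0.

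Among the transporter and escort genes with a mean of at least 50 normalised counts, which leaves out *Emb*, *Slc16a4* and *Slc5a12*, *Slc16a3* and *Bsg* had the widest range over the libraries. The profiles most like theirs were sought among 11634 genes, by Euclidean distance between centred log2 profiles over the 4 libraries. The closest to *Slc16a3* (range 1.55 on the log2 scale) were *Pla2g15* (distance 0.112), *Hemk1* (0.134) and *Nubpl* (0.140). The closest to *Bsg* (range 1.08) were *Cep112* (0.0543), *Wdr31* (0.0570) and *Tmem9* (0.0607). With 4 points, such neighbours are a description only.

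In the lists that follow, the numbers above and below 0 are to be read against all genes compared, of which 48.7% lay above 0 at 48 h and 50.3% at 72 h. Of the 10 other SLC16 genes, which carry aromatic amino acids and other substrates, 7 were compared, and at 48 h 6 lay above 0 and 1 below (median log2 fold change 0.83, all genes -0.01). *Slc16a6* and *Slc16a10*, the aromatic amino acid carrier, were at 0.89 and 0.84. At 72 h the list was split, 4 above and 3 below (median 0.10), and without the filter on low counts the medians were 0.22 at 48 h and -0.04 at 72 h. At 72 h *Slc16a6* was at 0.10, *Slc16a10* at -0.04 and *Slc16a13* at 0.32. *Slc16a5* resembled *Abcg2*, at 0.23 (0.03 to 0.42) at 48 h and -0.87 (-1.07 to -0.68) at 72 h. *Slc16a14* had no counts.

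Of the 9 other sodium-coupled SLC5 carriers, 5 were compared, with medians of -0.00 at 48 h and -0.16 at 72 h. The glucose carrier *Slc5a1* was at -0.10 (-0.16 to -0.03) and -0.48 (-0.55 to -0.41), lower at 72 h as *Slc5a8* was. The 1 gene past 2-fold at 48 h was the iodide carrier *Slc5a5*, on counts of 7 and 43, singled out after its values were seen.

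The 7 ABC exporters other than *Abcg2* had 6 above 0 and 1 below at 48 h (median 0.49) and 2 above and 5 below at 72 h (median -0.09), and none passed 2-fold. Of the 5 below 0 at 72 h, *Abcc4* (-0.01) and *Abcc5* (-0.09) had counting intervals that spanned 0. *Abcc2* (MRP2, an apical conjugate pump) was at 0.57 (0.30 to 0.85) and -0.68 (-1.08 to -0.29), and *Abcc3*, its basolateral relative, at 0.20 and -0.56. *Abcc1* had like values at both times, 0.49 and 0.46.

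Among other carriers of short-chain fatty acids and the exchangers that move protons and bicarbonate beside them, 6 were compared, of which 6 lay above 0 at 48 h (median 0.46) and 1 at 72 h (median -0.23). *Slc26a3*, the chloride-bicarbonate exchanger of surface colonocytes, had counts of 2983 and 8211 at 48 h (1.29, 1.23 to 1.35) and 4385 and 3498 at 72 h (-0.20, -0.26 to -0.13). The sodium-proton exchangers *Slc9a3* (0.70 and -0.39) and *Slc9a2* (0.39 and -0.65) had the same order of signs. *Slc22a7* had no counts.

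Of 4 receptors for short-chain fatty acids and related ligands, only *Ffar2* was abundant enough to compare. It had 139 untreated and 84 butyrate counts at 48 h, then 92 and 32 at 72 h, lower with butyrate at both times (-0.89, -1.31 to -0.50, and -1.37, -2.02 to -0.80). *Ffar3*, *Hcar1* and *Hcar2* had at most 6 counts in any library.

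The enzymes that activate and oxidise butyrate had 10 of the 14 compared above 0 at 48 h (median 0.35), and were split at 72 h, 6 above and 8 below (median -0.04). The medium-chain acyl-CoA synthetase *Acsm3* was at 0.66 and -0.06, and the short-chain acyl-CoA dehydrogenase *Acads* at 0.59 and 0.05. *Oxct1*, which activates ketone bodies for use, was at -0.23 and -0.47, and *Acsm1* had no counts. The 1 gene past 2-fold was *Acss3*, lower at 48 h on counts of 21 and 10, singled out after its values were seen.

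Among 11 genes that make and use lactate and pyruvate, 7 lay above 0 and 4 below at 48 h (median 0.05), and 5 above and 6 below at 72 h (median -0.02). *Ldhd*, which oxidises D-lactate, had counts of 85 and 253 at 48 h (1.39, 1.04 to 1.77) and 85 and 119 at 72 h (0.61, 0.20 to 1.03). The mitochondrial pyruvate carrier subunit *Mpc2* was at -0.27 and -0.72. The pyruvate dehydrogenase kinases differed from each other at 72 h, with *Pdk1* at 0.52 and *Pdk2* at -0.49.

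**Figure D5:**
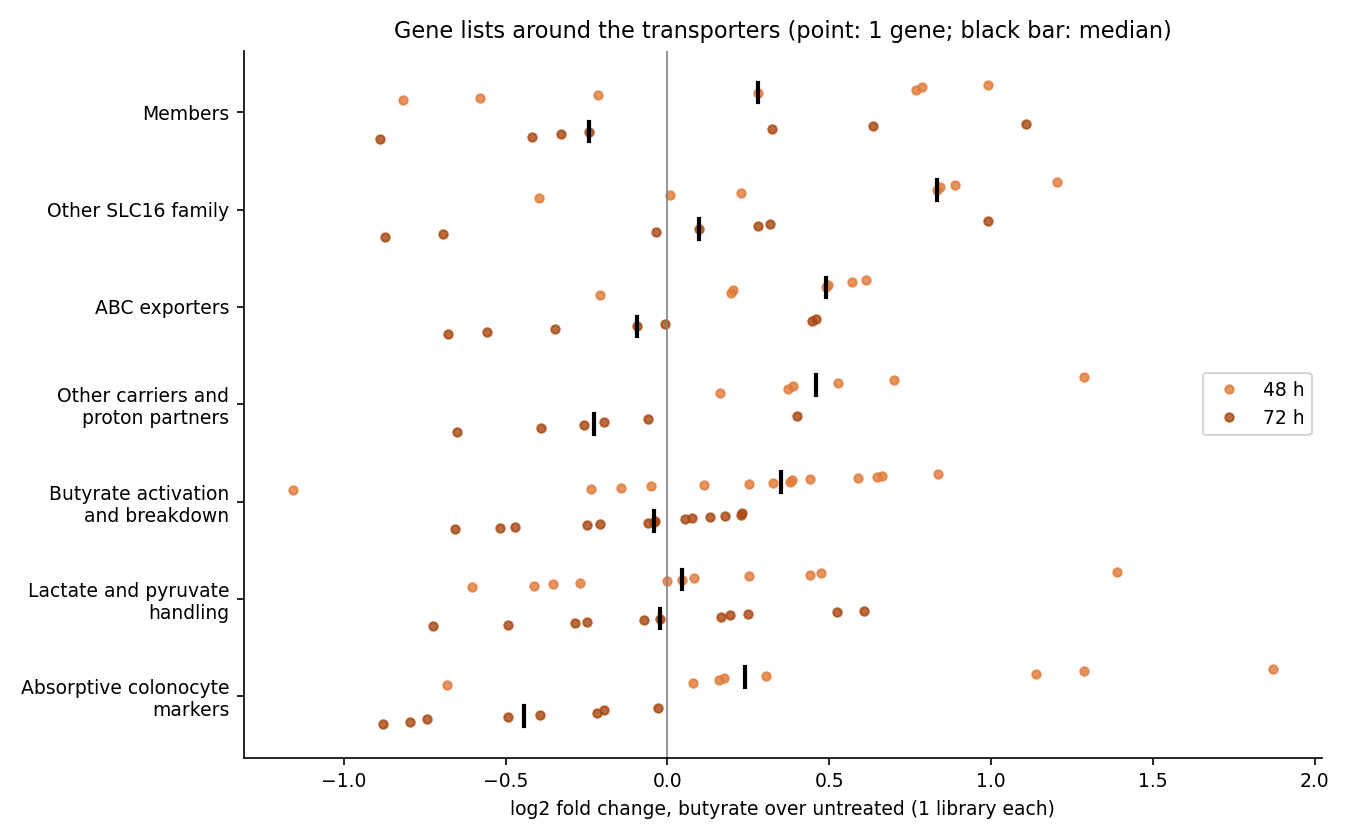
log2 fold change with butyrate for each compared gene of each list at 48 h (upper points of a row) and 72 h (lower points); black bars are medians. The other carriers and proton partners lie to the right of 0 at 48 h (median 0.46) and, but for 1 gene, to the left at 72 h (median -0.23), and the ABC exporters lie on both sides of 0 at 72 h (median -0.09).

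Markers of cell state moved beside these values. Of 8 markers of absorptive colonocytes, which include *Slc26a3*, 7 were above 0 at 48 h (median 0.24, *Car4* 1.87, *Car1* 1.14) and all 8 were below 0 at 72 h (median -0.44, *Car4* -0.39, *Car1* -0.88). The most abundant of them, *Ceacam1*, was lower with butyrate at both times (-0.68 and -0.80), and the interval of *Aqp8* at 72 h spanned 0 (-0.03, -0.18 to 0.12). Their summed level was 97413 and 105147 at 48 h and 129493 and 77231 at 72 h, untreated before butyrate-treated. *Abcg2* had the sign of the median of this list at both times. *Slc16a1*, *Slc16a3* and *Bsg* had it at 48 h and not at 72 h. *Slc16a7*, *Slc5a8* and *Emb* had it at 72 h and not at 48 h, the intervals of *Emb* spanning 0. The 5 stem cell markers had median log2 fold changes of -0.31 (48 h) and 0.70 (72 h), with summed levels of 18204 and 13277 and of 12746 and 20830, and the 4 proliferation markers had medians of 0.06 and 0.41. Of 5 small intestine markers, *Lct*, *Fabp6*, *Apoa4* and *Defa5* had at most 11 counts in any library, and the brush border enzyme gene *Sis* had 422 and 847 at 48 h and 2357 and 543 at 72 h, highest in the untreated 72 h library. The 8 immune markers summed to 190 and 1229 at 48 h and to 234 and 525 at 72 h, the largest part of it *Cd68*, a lysosomal protein gene, with counts of 128, 1309, 172 and 420. Without *Cd68*, a step chosen after its values were seen, they summed to between 41.7 and 71.3, with *Cd52* at 0 and *Ptprc* at 5, 6, 15 and 6 counts. The part of cell composition in the transporter and escort differences was not tested.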

How the data were processed

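The authors pseudo-aligned the reads with kallisto 0.44.0 and used build GRCm38.p6, per the submitters' processing notes, and deposited estimated counts per gene, already rounded to whole numbers, in 1 table of 4 libraries. The annotation release and strand setting are not given in the sources used here. Of the 36144 rows, 26 had gene names turned into dates and 2 names were duplicated.

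Counts were scaled by DESeq2 1.42.0 median-of-ratios size factors (R 4.3.3), and genes with over 10 counts in at least 2 libraries were compared as log2 (normalised count + 1) differences (Python 3.11.15, numpy 2.4.6, scipy 1.17.1). With 1 library per group no test was made, and a gene was counted as past a limit at 2-fold or 1.5-fold. Intervals are 95% Clopper-Pearson on the share of each pair of counts, carried to the ratio by the size factors, and the floor is 3 counts. For the difference between the 72 h and 48 h changes the interval is a 95% normal approximation, its variance summed from 1 over each of the 4 counts. Levels between genes were divided by the union of exons in GENCODE M21, the source of the gene coordinates. The fold change and its interval were tested on simulated data.

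All 9 members were named. From each list up to 5 genes with the largest absolute change and a mean of at least 50 normalised counts were eligible to be named, with any at 0, and some genes of the lists are not reported here by name. The members and lists were chosen with earlier results of these data known. Alternatives were scaling by edgeR 4.0.16 (TMM) or by the total count (with or without mitochondrial genes), 5 as pseudocount, no filter or a mean of at least 50, libraries thinned to the smallest total count, a 1.5-fold limit and other gene lengths.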

Additional observations from a re-analysis of the deposited data

Results flagged for a closer look

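The change with butyrate was of opposite sign at the 2 times, each with a counting interval clear of 0, for 28 of the 78 genes screened. Those screened were the 7 transporter and escort genes compared and the list and marker genes with a mean of at least 50 normalised counts. Of the transporter, escort and pathway genes alone, 14 of 54 had such opposite signs, and of all genes compared with a mean of at least 50, 11.3% had them. The members and lists were chosen with earlier results of these data known, so these shares are a description and not a test of an excess. With 1 library per condition the difference between the times was not tested, and the values below are the 72 h log2 fold change minus the 48 h one. Among the transporters it was -1.17 for *Abcg2*, and in the wider SLC16 and SLC5 families it was -1.10 for *Slc16a5*, -0.34 for *Slc5a3* and 0.43 for *Slc5a9*. Among the exporters it was -0.54 for *Abcb1a*, -1.25 for *Abcc2* and -0.76 for *Abcc3*. For the exchangers it was -1.48 for *Slc26a3*, -0.63 for *Slc4a2*, -1.04 for *Slc9a2* and -1.09 for *Slc9a3*. Of the butyrate breakdown enzymes, *Acss2* was at -0.63, *Hadh* at -0.59 and *Acaa2* at -0.84. Of the other absorptive colonocyte markers, *Car1* was at -2.02, *Car4* at -2.26, *Krt20* at -1.05, *Guca2a* at -0.65 and *Muc3* at -0.40. Of the epithelial markers, *Cdh1* was at -0.31, *Krt8* at -0.26, *Krt18* at 0.32, *Krt19* at -0.31 and *Cdx2* at -0.29. The stem cell markers *Lgr5*, *Smoc2* and *Axin2* were at 1.73, 1.01 and 0.76, and *Sis* was at -2.82. Of the 28, 23 were higher with butyrate at 48 h and lower at 72 h, and the other 5 (*Slc5a9*, *Krt18*, *Lgr5*, *Smoc2* and *Axin2*) were the reverse. The split of directions over all genes is not reported here.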

How the results depend on the processing

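No pairing of replicates was possible because a condition was sequenced as 1 library without replicate numbers, and for the same reason no library could be left out. Of the fold changes of the transporter and escort genes under the alternatives, 188 moved by less than their counting interval and 4 by more, all 4 with total count scaling: *Bsg* at 72 h (0.69), *Bsg* over time without (-0.39) and with butyrate (-0.48), and *Slc16a1* over time without butyrate (-0.07). None that passed a limit changed sign. The genes that moved the counts past 2-fold lie near the limit or near 0 counts. At 48 h the count of 0 became 1 with no filter (*Slc16a4*), 1 with a mean of at least 50 and 1 after thinning (*Slc16a3* in both, whose log2 fold change was 0.98 to 1.01 over the alternatives), and 4 at 1.5-fold. At 72 h the count of 1 became 2 with no filter and 3 at 1.5-fold. Over time without butyrate the count of 1 became 0 with a pseudocount of 5, 2 with no filter and 0 with a mean of at least 50. Over time with butyrate the count of 1 became 2 with no filter, 0 with a mean of at least 50 and 2 at 1.5-fold. Of the list medians, 212 stayed within 0.1 of their value, some near 0 with a change of sign (with total count scaling butyrate breakdown at 72 h went from -0.04 to 0.01 and lactate and pyruvate from -0.02 to 0.03), and 12 moved by more, among them that of the other SLC16 genes, which with no filter went from 0.83 to 0.22 at 48 h and from 0.10 to -0.04 at 72 h and with a pseudocount of 5 to 0.73 at 48 h. Depth limits *Emb*, *Slc16a4* and *Slc5a12*, and all values are those of 1 culture.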
